A study of Homo sapiens with 4 samples.

Results

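The DLK1-MEG3 locus is an imprinted domain on the long arm of human chromosome 14, and it was followed here by Nanopore cDNA sequencing of human embryonic stem cells (hESCs) in the naïve and the primed state. Its members were the annotated transcripts on chromosome 14 with both ends between bases 100700000 and 101600000 of GRCh38. They numbered 272 of the 244825 transcripts counted and belonged to 127 of 62218 genes. Of these genes 3 were protein-coding (DLK1, RTL1 and DIO3), 17 were long non-coding RNA (lncRNA) genes, 54 were microRNA genes, 47 were small nucleolar RNA (snoRNA) genes, 5 were other small RNA entries and 1 was a pseudogene. Of the 272 transcripts, 9 had no match in the gene annotation used for symbols. All 9 lay beside the lncRNA gene ENSG00000288302 and were counted as members without a gene.

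All libraries came from wild-type cells of H1, an established hESC line. The naïve cells were H1 cells grown in FINE, a medium with several kinase inhibitors together with LIF, activin A and bFGF, under low oxygen, and were taken at 50% confluency. The primed cells were H1 cells grown in mTeSR under ordinary oxygen and taken at 60-70% confluency. There were 2 libraries per state, all from a single line, so the state, the medium and the oxygen level cannot be told apart. Nothing in the sources used here says that the replicates were separate cultures, so the p-values measure only the spread between these samples, which may be technical.

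An imprinted gene is expressed from the chromosome of a single parent, and the choice is held by DNA methylation at a control region. At this locus DLK1, RTL1 and DIO3 are known as the genes of the paternal chromosome, while MEG3, MEG8, MEG9, the snoRNAs and the microRNAs are expressed from the maternal one. The maternal RNAs are generally thought to be made as a long run of transcription that starts at MEG3, with the small RNAs cut out of its introns. Loss of MEG3 expression is a known form of imprinting defect in cultured pluripotent stem cells.

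The small RNA genes are shown first, because their short spans served as points at which the long transcript was read. SNORD113 and SNORD114 are repeated copies of a box C/D snoRNA, a class that usually guides methylation of other RNAs and carries a C box (TGATGA) near its start and a D box (CTGA) near its end. The 3 SNORD114 copies with the most alignments, the SNORD113 copy with the most and the single SNORD112 gene are given from the genome sequence of GRCh38, plus strand, 5′ to 3′, with both boxes in capitals. These boxes were searched in the first 15 and last 20 bases of the plus strand only.
SNORD112, chr14:100897920-100897996: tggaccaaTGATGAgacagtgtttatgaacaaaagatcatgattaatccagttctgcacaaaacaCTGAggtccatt
SNORD113-4, chr14:100936491-100936565: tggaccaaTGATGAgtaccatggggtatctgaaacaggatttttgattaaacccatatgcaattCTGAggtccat
SNORD114-1, chr14:100949833-100949904: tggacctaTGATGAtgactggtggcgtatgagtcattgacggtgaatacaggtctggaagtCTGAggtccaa
SNORD114-10, chr14:100967052-100967123: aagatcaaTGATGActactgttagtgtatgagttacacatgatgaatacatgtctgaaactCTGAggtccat
SNORD114-13, chr14:100969879-100969952: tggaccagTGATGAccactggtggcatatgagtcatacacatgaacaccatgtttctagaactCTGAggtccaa

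Of the 40 spans of SNORD112, SNORD113 and SNORD114 genes, 29 held the exact C box, 39 the D box and 29 both. The identity of a SNORD114 copy to the most similar other SNORD114 copy ran from 70.1% to 94.4%, with a median of 89.1% over 30 copies. SNORD114-13 was 84.0% identical to its nearest copies, SNORD114-3 and SNORD114-11.

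All 54 microRNA genes matched the RefSeq table of GRCh38.p14, with 98 mature entries of 94 distinct sequences. The seed, bases 2 to 8 of the mature microRNA, is the part that pairs with target messages, and the 94 sequences had 83 distinct seeds, of which 10 were shared by several sequences. The examples below are the microRNA with the most alignments at its gene (miR-370-3p), 2 that lie opposite the RTL1 coding sequence (miR-127-3p and miR-136-5p), members from either end of the large MIR379 to MIR656 cluster (miR-379-5p and miR-410-3p), and 2 pairs with a common seed. Seeds are in capitals.
miR-370-3p: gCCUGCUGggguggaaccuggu
miR-127-3p: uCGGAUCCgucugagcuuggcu
miR-136-5p: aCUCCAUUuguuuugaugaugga
miR-379-5p: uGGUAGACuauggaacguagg
miR-410-3p: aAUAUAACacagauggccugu
miR-376a-3p: aUCAUAGAggaaaauccacgu
miR-376b-3p: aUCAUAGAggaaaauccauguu
miR-154-3p: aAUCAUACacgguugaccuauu
miR-487a-3p: aAUCAUACagggacauccaguu

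The values are raw counts of alignments, which the authors made over the whole span of each transcript, introns included and strand ignored. An alignment counts for every transcript whose span it overlaps, so sense and antisense genes, and genes inside others, cannot be told apart where they share sequence. Bases that an alignment skips as an intron are not counted. A small RNA span therefore gives the number of alignments with sequence across that point and not the amount of the mature small RNA, which a cDNA library of long RNA does not measure. Summed over all transcripts, the libraries held 153647482 and 161548901 counts in the naïve state and 129276054 and 132927036 in the primed state. The library size behind a level was smaller, because each gene entered it with the count of a single isoform. It was 29618023 for naïve rep1, 30978742 for naïve rep2, 23542387 for primed rep1 and 24673487 for primed rep2. TMM scaling turned these sizes, in the same order, into 23086106, 25533154, 29460983 and 30690113. Levels are given as CPM, counts divided by the TMM-scaled library size and given per 1000000, and where no alignment was counted the limit was taken as 3 counts, or 0.130 and 0.117 CPM in the naïve libraries and 0.102 and 0.0978 CPM in the primed ones.

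MEG3, MIR493HG and MEG8 each had 1668 or more alignments in both naïve libraries and at most 4 in a primed library, whereas DIO3 was higher in primed cells and DLK1 was below 1 CPM in both states. Of the 127 genes, 23 passed the filter of at least 10 counts in at least 2 libraries. Of these 21 were lower in primed cells (quasi-likelihood test of edgeR, adjusted p below 0.05), 1 was higher and 1 was not called. Among all 27633 genes tested 70.0% were called, 32.6% as lower in primed cells and 37.4% as higher. With scaling by library size alone these shares were 16.3% and 56.2%, and over all genes the median log2 fold change moved from 0.08 to 0.72, while the locus again had 21 genes lower and 1 higher. All 21 passed the filter only through the naïve libraries, and the gene called higher passed only through the primed ones, so the counts describe these genes and are not separate support. Most of the 21 lie inside the spans of MEG3, MIR493HG or MEG8 and can share alignments with them, so they are not independent genes. Of the other 104 genes, 57 had no alignment in any library. In all, 117 of the 127 genes were at 0 in both primed libraries. In these bulk libraries fewer cells of a type and less RNA per cell cannot be told apart.

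Counted by transcript, 142 and 153 of the 272 members (52.2% and 56.3%) had more than 3 counts in the naïve libraries, against 6 and 8 (2.21% and 2.94%) in the primed ones. In the fit over all transcripts, 126 members were tested, of which 120 were lower in primed cells and 1 was higher, where 32.6% and 36.3% (68.9% in all) of the 171617 transcripts tested were so called. All 120 passed the filter only through the naïve libraries. Members share alignments, and with transcripts of identical counts collapsed 98 of 104 were lower.

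**Figure D1:**
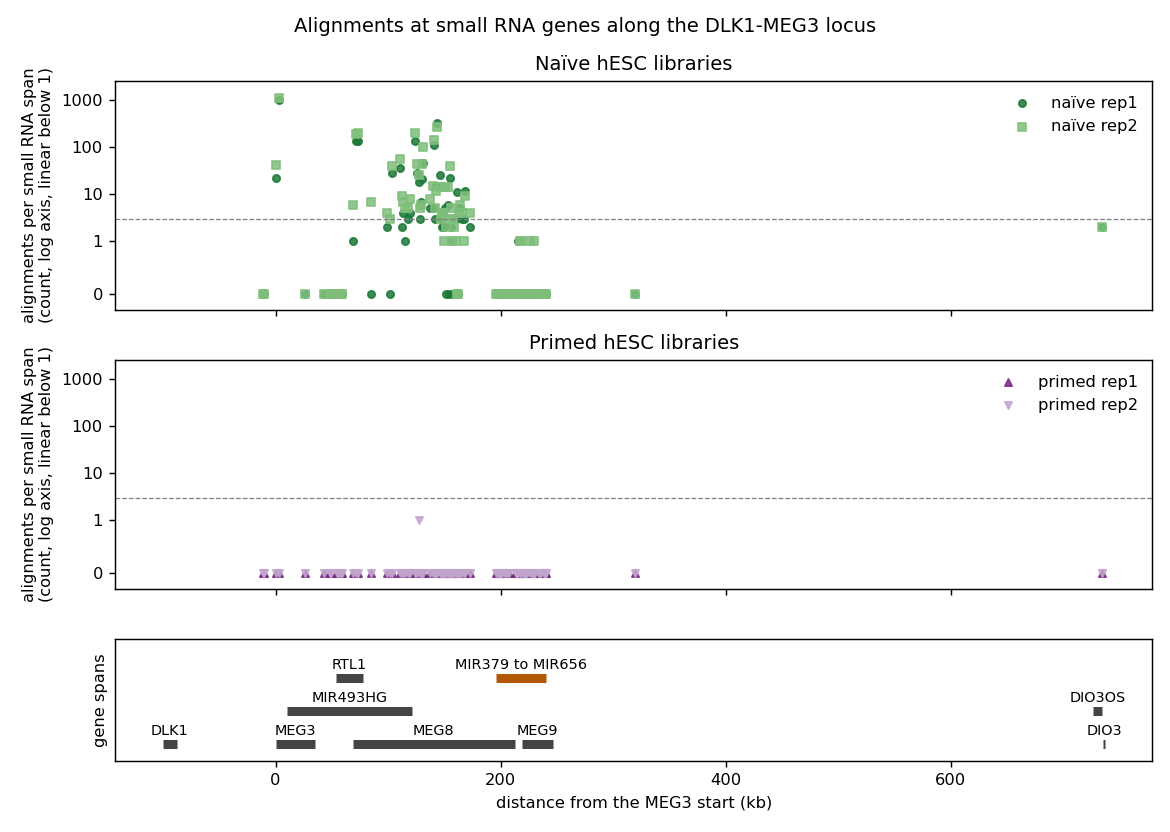
Alignments (count, log axis that is linear below 1) at each small RNA gene span, by distance from the MEG3 start in kb, for the naïve libraries (top) and the primed libraries (middle), with the gene spans below; the dashed line is at 3 counts. Naïve alignments stand at the start of MEG3 and again from SNORD112 through the SNORD114 genes, with 9 microRNA genes at 0 between them, and reach at most 1 at each gene of the MIR379 to MIR656 cluster, and the primed libraries hold a single alignment, at SNORD114-3.

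MEG3 is the lncRNA at the start of the maternal transcription unit and is known as a growth suppressor. The isoform span with the most alignments, MEG3-231 (chr14:100826098-100861026, plus strand), had 1804 alignments in naïve rep1, 1985 in naïve rep2 and 0 in both primed libraries. The naïve levels were 78.1 and 77.7 CPM. Against the limit of 3 counts in each primed library, MEG3 was at least 781-fold lower in primed cells (adjusted p = 4.44e-30, edgeR's quasi-likelihood test). The naïve libraries were close to each other, and both were far above the primed ones.

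All 50 MEG3 isoform spans were lower in primed cells, as were 32.6% of all transcripts tested. All 50 passed the filter only through the naïve libraries. They had 823 to 1804 alignments in naïve rep1 and 858 to 1985 in naïve rep2. Of these, 49 were at 0 in both primed libraries. The exception, MEG3-226 (chr14:100779410-100829185), starts far upstream of the others and had 1305 and 1441 alignments in the naïve libraries against 2 and 1 in the primed libraries, a ratio of 1132 with an exact 95% interval of 387 to 5495 that covers counting error only. Since MEG3-231 held no primed alignment, these 3 alignments lay upstream of its start. The end of MEG3-226 overlaps the 5′ part of the other MEG3 spans, so its naïve alignments can be those of MEG3. The ratio is therefore not one for the upstream stretch alone.

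Within MEG3 the alignments of the naïve cells were not spread evenly. The inner span MEG3-212 (chr14:100827411-100829306), near the 5′ end, held 70.4% (95% interval by Wilson's method 68.3 to 72.5) and 69.9% (67.8 to 71.9) of the alignments on the gene-wide span MEG3-244. The span MEG3-250 (chr14:100855418-100860791), near the 3′ end, held 46.3% (44.0 to 48.6) and 43.2% (41.1 to 45.4). The 5′ share was the higher in both libraries. From these counts at least 301 alignments of naïve rep1 (16.7%) and 260 of naïve rep2 (13.1%) overlapped both spans, and so reached across most of the gene.

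Further genes lie inside the MEG3 span. The small RNA entry ENSG00000276919 had 975 and 1091 alignments in the naïve libraries and ENSG00000274884, nearer the start, had 22 and 42, with 0 in all primed libraries. The antisense lncRNA ENSG00000258663 had 931 and 970 alignments in the naïve libraries and 0 in the primed ones. It covers the 3′ part of MEG3 on the other strand, so its alignments and those of MEG3 cannot be told apart.

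**Figure D2:**
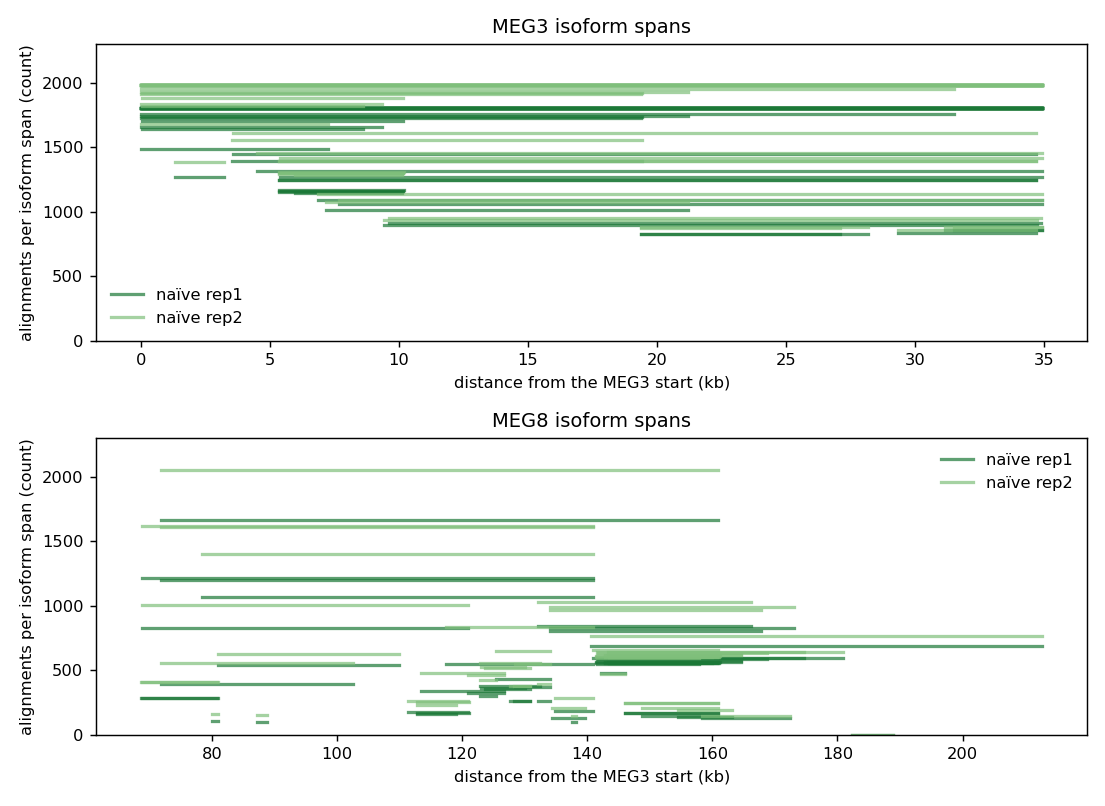
Alignments (count, vertical position) on each isoform span of MEG3, without MEG3-226, and of MEG8 in the naïve libraries, drawn from its start to its end in kb from the MEG3 start. In MEG3 spans at the 5′ end hold more alignments than short spans at the 3′ end, and in MEG8 the short spans hold fewer than the wide ones, with the last short span near 0.

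The promoter of MEG3 is shown because MEG3, MIR493HG and MEG8, which follow each other from here, were all lower in primed cells. It is the RefSeq window from 250 bases before to 50 bases after the most upstream of 3 MEG3 starts (GRCh38.p14, chr14:100825858-100826157, plus strand). Capitals mark, in order along the window, a match to the core of the ZFP57 motif (TGCCGC, read from the minus strand), a cyclic AMP response element (TGACGTCA) and a TATA box (TATAAA).
MEG3 promoter: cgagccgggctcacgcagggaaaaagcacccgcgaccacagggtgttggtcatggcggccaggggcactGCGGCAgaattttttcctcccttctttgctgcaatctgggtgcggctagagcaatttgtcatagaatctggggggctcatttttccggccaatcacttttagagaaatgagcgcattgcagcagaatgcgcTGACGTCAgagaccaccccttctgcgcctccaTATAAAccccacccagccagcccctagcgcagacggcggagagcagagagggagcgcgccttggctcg

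Searched on both strands, TGACGTCA occurred in 1.85% of 35116 RefSeq promoter windows of the same length, TGCCGC in 16.7% and TATAAA in 11.5%, and the 3 motifs do not overlap here. The window held 19 CpG dinucleotides, where the median over all windows was 14, and it held no GC box (GGGCGG), which 45.0% of windows hold. These letter matches are descriptions, and no binding or methylation was measured.

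MIR493HG and MEG8 continue the maternal transcription downstream of MEG3. MIR493HG (chr14:100836269-100947194), the annotated host of miR-493, had 1767 and 1996 alignments in the naïve libraries and 1 in each primed library. The naïve to primed ratio was 2328 with an exact 95% counting interval of 644 to 19230 (adjusted p = 1.69e-30). Its span runs from inside MEG3 into MEG8, and only 24 of its alignments for naïve rep1 and 39 for naïve rep2 must lie outside both the MEG3-219 and MEG8-219 spans. Nearly all of its count can therefore be shared with MEG3 and MEG8.

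MEG8, a lncRNA that hosts most of the snoRNA copies, had 1668 and 2057 alignments on its most counted span, MEG8-222 (chr14:100897922-100986938), in the naïve libraries. The primed libraries had 0 and 4. Their ratio was 1152 with an exact 95% counting interval of 450 to 4231 (adjusted p = 3.48e-29). All 4 primed alignments were in primed rep2, and the fitted log2 fold change of −10.07 was −9.14 without primed rep1 and −13.96 without primed rep2, where it depends on the prior count. Of 52 MEG8 spans, 51 were tested and all 51 were lower in primed cells, as were 32.6% of all transcripts tested. All 51 passed the filter only through the naïve libraries. Nowhere in MEG8 did a primed library exceed 4 alignments.

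The naïve alignments in MEG8 fell on many short stretches. The span MEG8-247 (chr14:100968265-100972067), which holds SNORD114-12 and SNORD114-13, had 482 and 468 alignments, or 28.9% (26.8 to 31.1) and 22.8% (21.0 to 24.6) of those on MEG8-222. The span MEG8-211 (chr14:100951444-100960179) had 25.8% (23.7 to 27.9) and 31.5% (29.5 to 33.5). For these stretches the intervals of the naïve libraries did not overlap, MEG8-247 being higher in rep1 and MEG8-211 in rep2. They did not overlap for MEG8-201 either. For MEG8-208, MEG8-216, MEG8-203, MEG8-238 and MEG8-207 they overlapped. MEG8-216 had 32.7% (30.5 to 35.0) in rep1 and 30.4% (28.5 to 32.5) in rep2. These intervals cover counting error only.

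The naïve signal stopped within the 3′ part of MEG8. The span MEG8-221 (chr14:100984386-100998543) still had 128 and 143 alignments, while MEG8-246 (chr14:101008386-101014998), the next short span along, had 2 and 1. MEG9, the lncRNA beyond it, had 4 and 9 alignments in the naïve libraries and 0 in the primed ones, too few to be tested. MEG9 was below 1 CPM in every library.

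**Figure D3:**
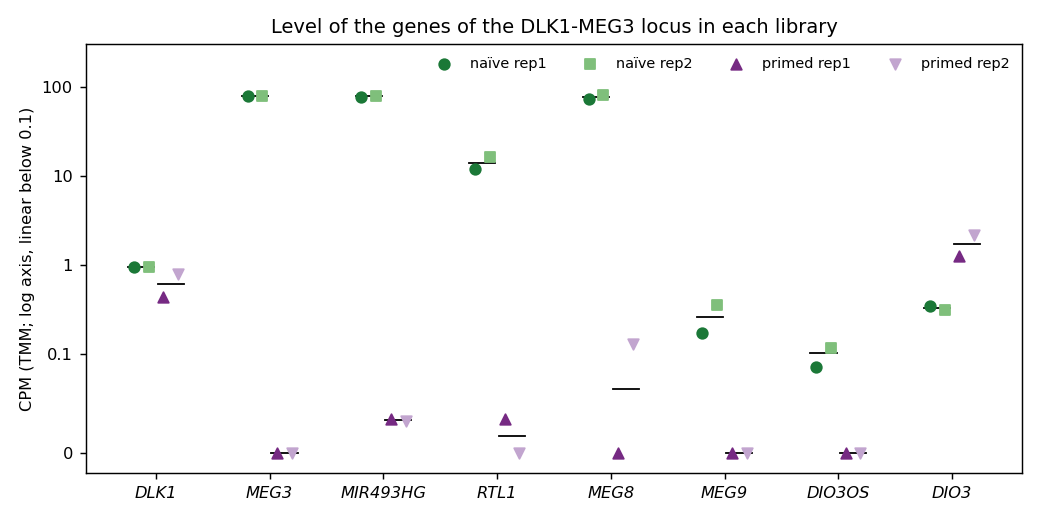
Level in CPM after TMM scaling (log axis that is linear below 0.1) of 8 genes in their order along the locus, with a point for each library and a line at the mean of each state. MEG3, MIR493HG, RTL1 and MEG8 lie above 10 CPM in both naïve libraries and at or near 0 in the primed ones, DLK1 is below 1 CPM in all 4, and DIO3 is higher in both primed libraries.

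The snoRNA copies had alignments in the naïve libraries and, but for a single alignment, none in the primed ones. Of 9 SNORD113 genes 2 were tested, and of 30 SNORD114 genes 9 were tested. All 11 were lower in primed cells, as were 32.6% of all genes tested, and all 11 passed the filter only through the naïve libraries. Of the 39 genes of both families, 38 were at 0 in both primed libraries and SNORD114-27 was at 0 in all 4. SNORD114-3 held the single primed alignment, in rep2, against 18 and 25 in the naïve libraries, a ratio of 53.2 with an exact 95% counting interval of 9.05 to 2149. Its fitted log2 fold change of −5.39 was −4.57 without primed rep1 and −7.53 without primed rep2.

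The copies differed widely among themselves in the naïve state, although their spans are of like length. SNORD114-13 had the most, with 323 and 267 alignments against 0 and 0 in primed cells, and was at least 122-fold lower there (adjusted p = 4.24e-22). SNORD114-1 had 134 and 201 alignments and SNORD114-10 had 110 and 141, at least 68.5-fold and 51.5-fold lower in primed cells. SNORD113-4 had 36 and 55 alignments, at least 18.6-fold lower.

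Most other copies were far below these. Over the 30 SNORD114 genes the median was 5 alignments in each naïve library, and over the 9 SNORD113 genes it was 3 and 7. Immediate neighbours could differ greatly: SNORD114-12, next to SNORD114-13, had 15 and 12 alignments. SNORD114-26 differed between the naïve libraries, with 11 and 0. SNORD112, the snoRNA at the start of MEG8, had 131 and 191 alignments in the naïve libraries and 0 in the primed ones. A span counts any alignment across it, so these counts are not levels of the snoRNAs themselves.

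**Figure D4:**
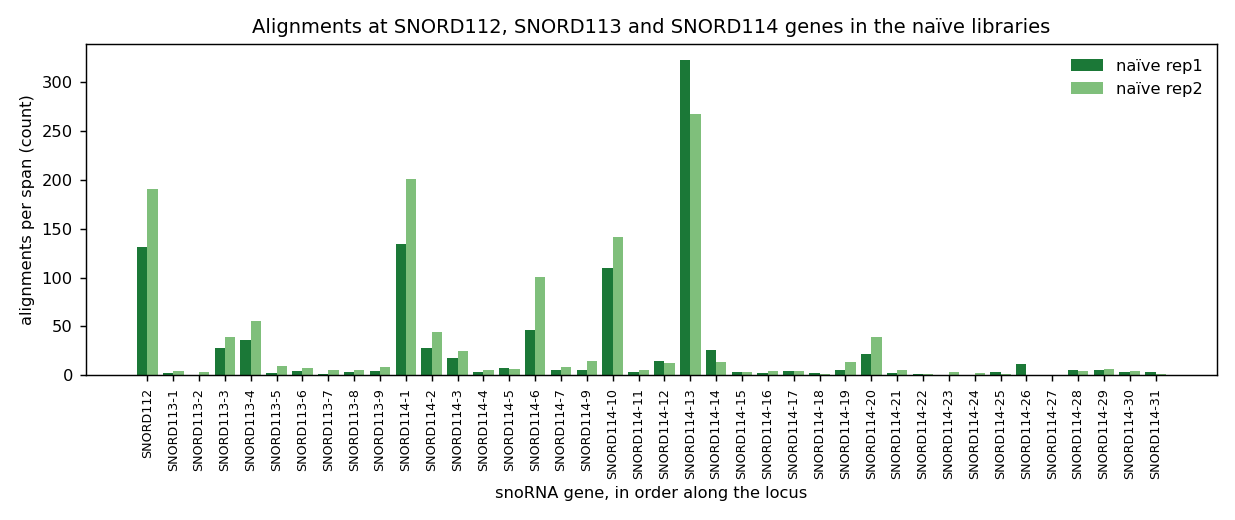
Alignments (count) on the spans of SNORD112 and of the SNORD113 and SNORD114 genes in their order along the locus, with a bar for each naïve library. SNORD114-13 is the highest with 323 and 267, followed by SNORD114-1, SNORD112 and SNORD114-10, and most copies hold fewer than 20.

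The microRNA genes were almost without alignments in either state. Of 54 genes 47 were at 0 in all 4 libraries, all 54 were at 0 in both primed libraries and none was tested. MIR370 had 0 and 7 alignments in the naïve libraries and MIR1247, which lies beside DIO3 inside DIO3OS, had 2 and 2. The 9 microRNA genes from MIR770 to MIR136, which lie 26.3 to 58.6 kb from the MEG3 start between the points with many naïve alignments, were at 0 in all 4 libraries. In the MIR379 to MIR656 cluster, which lies beyond the stretch where the MEG8 signal stopped, 37 of 42 genes were at 0 everywhere. MIR300, MIR1185-1, MIR1185-2, MIR487A and MIR485 had a single alignment each, in a naïve library. The level of the mature microRNAs was not measured.

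RTL1 encodes a protein derived from a retrotransposon and is needed in the placenta, and the microRNAs MIR431, MIR433, MIR127, MIR432 and MIR136 are transcribed across it from the other strand. The RTL1 span (chr14:100879753-100903722, minus strand) had 272 and 410 alignments in the naïve libraries, against 1 and 0 in the primed libraries. The ratio was 844 with an exact 95% counting interval of 151 to 33380 (adjusted p = 8.98e-23). The fitted log2 fold change of −9.36 was −8.49 without primed rep2 and −11.53 without primed rep1, the library with the single alignment. The 5 microRNA genes lie inside the single coding segment of RTL1 (chr14:100880715-100884788), and all 5 were at 0 in all 4 libraries. At the other end of the same span, on the plus strand, SNORD112 had its 131 and 191 alignments and the small RNA entry ENSG00000275134 had 137 and 198. The whole RTL1 span also lies inside MIR493HG, so the count on RTL1 cannot be read as a level of the RTL1 message.

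DLK1, a transmembrane protein related to the Notch ligands that is known to hold back differentiation, was low in both states. Its most counted span, DLK1-202 (chr14:100726892-100738224), had 22 and 24 alignments in the naïve libraries, against 13 and 24 in the primed libraries. The levels were 0.953 and 0.940 CPM in naïve cells against 0.441 and 0.782 CPM in primed cells, so the states did not overlap on this scale, as was so in this direction for 39.6% of all genes tested. The log2 fold change of primed against naïve was −0.62 ± 0.39 (SE; adjusted p = 0.149) with TMM and 0.01 with library size, so it was not called and its direction depended on the scaling. The naïve to primed ratio of 1.54 had an exact 95% counting interval of 0.976 to 2.44. None of the 5 DLK1 isoform spans was called. Between DLK1 and the main MEG3 spans lie 87873 bases.

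DIO3, the deiodinase that inactivates thyroid hormone, was the only gene of the locus called higher in primed cells. Its single span (chr14:101561351-101563452, plus strand) had 8 alignments in naïve rep1 and 8 in rep2, against 37 and 67 for the primed libraries. The levels were 0.347 and 0.313 CPM in naïve cells and 1.26 and 2.18 CPM in primed cells, a 5.21-fold difference (log2 fold change 2.37 ± 0.41, SE; adjusted p = 2.01e-06). Both primed libraries were above both naïve ones, as they were for 44.8% of all genes tested. It was also called with library size, and with DESeq2's size factors, where its log2 fold change was 2.33. DIO3OS, its antisense neighbour, had 2 and 3 alignments in the naïve libraries and 0 in the primed ones, too few to be tested.

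The remaining lncRNA genes between MEG9 and DIO3OS, a stretch of 479283 bases, were at or near 0. LINC02285 had 1 alignment, in primed rep1, and LINC00524 and LINC02314 had none. ENSG00000258497 had 2 and 2 alignments in the naïve libraries, against 0 and 5 in the primed libraries, so the states overlapped.

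Most genes on either side of the locus had alignments in both states. Of 62 genes wholly within 1 Mb of either edge, 33 were tested, of which 17 were lower in primed cells, 5 were higher and 11 were not called, with a median log2 fold change of −0.67 where all genes tested had 0.08. With library size, 8 of the 33 were lower and 10 higher, and the median was −0.03, so the calls depended on the scaling. Among all genes tested, 32.6% were lower and 37.4% higher with TMM, against 16.3% and 56.2% with library size. The tryptophanyl-tRNA synthetase gene WARS1 was lower at −2.36 ± 0.15 (SE) and the neuronal gene BEGAIN, upstream of DLK1, was higher at 4.80 ± 0.80 (SE) with TMM, and both were called in the same direction under each scaling. YY1, a transcription factor gene, was not called with TMM. Downstream, HSP90AA1 was lower at −0.46 with TMM but at 0.17 with library size.

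Among 18 genes that set or keep imprinted methylation and chromatin marks, the 3 with the widest differences were DNMT3L, DPPA3 and ZFP57, all lower in primed cells. DNMT3L, a cofactor of the de novo DNA methyltransferases, had 4540 and 3798 alignments in the naïve libraries against 4 and 2 in the primed ones. DPPA3, which guards methylation after fertilisation, had 3469 and 3745 against 10 and 6. ZFP57, a zinc finger protein that binds methylated imprint control regions, had 470 and 437 against 14 and 14. Their log2 fold changes were −10.69 ± 0.29, −9.10 ± 0.25 and −5.32 ± 0.25 (SE). DNMT3L and DPPA3 are also among the markers of the naïve state. DNMT3L passed the filter only through the naïve libraries.

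The other regulators differed less. In all 11 of the 18 were lower in primed cells with TMM, 5 were higher and 2 (DNMT3A and TET3) were not called, with a median log2 fold change of −0.58. With library size 4 were lower, 6 higher and 8 not called. Over all genes tested 32.6% were lower and 37.4% higher with TMM, and 16.3% and 56.2% with library size. TET2, a methylcytosine oxidase, was lower at −1.56 ± 0.23 (SE) with TMM, at −1.61 with DESeq2 and at −0.93 with library size, and was called each time. The maintenance methyltransferase DNMT1 was lower at −0.59 with TMM but at 0.04 with library size, and the Polycomb component SUZ12 and the insulator protein CTCF likewise changed sign. DNMT3B at 0.88 ± 0.14 (SE), JARID2 at 0.90 ± 0.15 and AFF3, which binds imprint control regions and has been tied to this locus, at 1.17 ± 0.33 were higher with TMM and were also called higher under each other scaling. ZNF445 and TRIM28, partners in imprint maintenance, were higher at 0.50 and 0.42 with TMM and were not called by DESeq2.

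**Figure D5:**
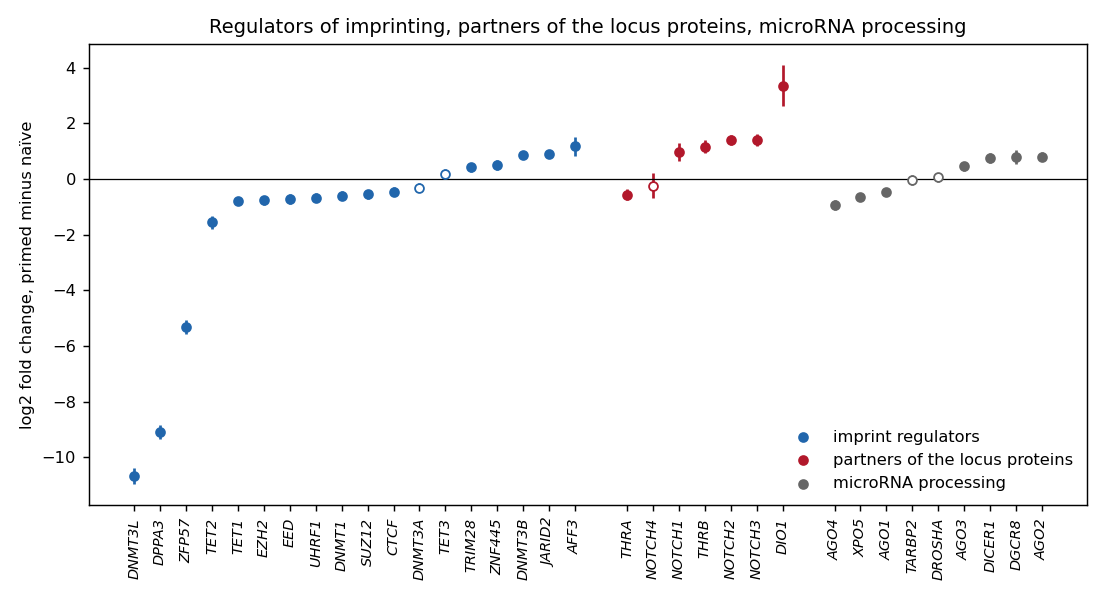
Log2 fold change of primed against naïve ± SE from edgeR with TMM scaling for the tested genes of 3 lists, each ordered by value; open points were not called at an adjusted p under 0.05. DNMT3L, DPPA3 and ZFP57 lie at −10.69, −9.10 and −5.32, and DIO1 is the highest at 3.36. DNMT3L passed the filter only through the naïve libraries and DIO1 only through the primed ones. The sign turns when library size replaces TMM for DNMT1, SUZ12, CTCF, DNMT3A, THRA, NOTCH4, AGO1 and TARBP2.

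Of the genes that act with the locus proteins, 8 are reported and 7 were tested. With TMM 5 were higher in primed cells, 1 was lower and 1 was not called, where 37.4% and 32.6% of all genes tested were higher and lower. NOTCH1, NOTCH2 and NOTCH3, receptors of the pathway in which DLK1 is known to act, were higher at 0.97 ± 0.32, 1.40 ± 0.19 and 1.41 ± 0.22 (SE), NOTCH1 not being called by DESeq2. NOTCH4 was not called. The thyroid hormone receptor gene THRB was higher at 1.16 ± 0.23. DIO1, which like DIO3 removes iodine from thyroid hormone, had 1 and 1 alignments in naïve cells and 12 and 16 in primed cells. It passed the filter only through the primed libraries, so its call describes this gene and is not separate support. THRA was lower at −0.57 ± 0.19 with TMM and at 0.07 with library size. DIO2 was not tested.

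Of 9 genes for microRNA processing, 3 (AGO1, AGO4 and XPO5) were lower in primed cells with TMM, 4 (DICER1, AGO2, AGO3 and DGCR8) were higher and 2 (DROSHA and TARBP2) were not called. With library size none was lower and 6 were higher. All genes tested were lower in 32.6% and higher in 37.4% of cases with TMM, and in 16.3% and 56.2% with library size. The changes were small beside those of the maternal genes, and the widest depended on the scaling. With TMM it was −0.93 ± 0.19 (SE) for AGO4, which was at −0.29 and not called with library size. With library size it was 1.45 for AGO2, which was called higher with TMM as well, at 0.81.

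The labelled states were checked against marker genes. With TMM all 8 naïve markers were lower in primed cells and all 9 primed markers higher, and with library size 7 and 9 were so called. Of all genes tested 32.6% were lower and 37.4% higher with TMM, and 16.3% and 56.2% with library size. Of 4 pluripotency markers shared by both states, NANOG was lower at −1.62 with TMM, and LIN28A and SOX2 were higher at 2.11 and 2.38. These 3 were called in the same direction under each scaling. POU5F1 was not called with TMM (−0.05) but was called higher with library size (0.59). Most markers of another cell type moved with the locus. Of 10 trophoblast markers 8 were lower in primed cells with TMM and 2 (KRT7 and ENPEP) were not called. With library size 8 were lower, KRT7 was higher at 1.00 and ENPEP was not called. The summed level of the 10 markers was 2490 and 2814 CPM in the naïve libraries against 8.04 and 8.83 CPM in the primed ones. The hormone subunit CGA was at 0 and 1 alignments in the primed libraries. All 5 amnion markers were lower with TMM and 4 with library size, with a sum of 24.6 and 22.9 CPM in the naïve libraries against 6.25 and 4.76 CPM. Summed levels of the hypoblast and endoderm list were at most 4.70 CPM and those of the mesoderm list at most 2.90 CPM in any library. The neural list summed to 26.7 and 18.6 CPM in naïve cells against 41.0 and 33.4 CPM, and the fibroblast or stroma list to 3.55 and 2.55 CPM against 57.6 and 59.5 CPM. Of the neural list, PAX6 and NES were higher and TUBB3 was not called with TMM. Only 3 of the 5 fibroblast or stroma markers were tested. With TMM, COL1A1 and COL1A2 were higher at 4.69 and 5.34, and COL3A1 was not called at 0.28. With library size all 3 tested genes of each list were called higher. MEG3 is known to be expressed in the placenta, and the part of these markers in the levels of the locus was not tested.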

How the data were processed

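RNA of naïve and primed H1 cells was sequenced as Nanopore cDNA, 2 libraries per state. The authors aligned reads to GRCh38 with minimap2 and deposited raw counts per transcript, made with featureCounts 2.0.0 on Ensembl release 105 over transcript spans, with alignments counted for each overlapping transcript and, per the file headers, at each place a read aligned. Transcripts were matched by identifier to GENCODE 44, and the 2283 unmatched of 244825 transcripts held 1.00% of counts.

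Isoforms were not summed, and a gene took the count of the isoform whose mean was largest. Features that reached 10 counts in 2 or more libraries entered edgeR 4.0.16 (R 4.3.3), TMM scaling, a quasi-likelihood fit and the state as the only term, two-sided. Benjamini-Hochberg adjustment ran over all genes or all transcripts tested, and adjusted p-values in the text are from these fits. The SE of a log2 fold change was its size divided by the square root of F. Replicates differed beyond sampling noise, with a chi-square per degree of freedom of 15.7 for naïve and 9.14 for primed. Intervals of a ratio are exact conditional binomial intervals at 95%. On simulated counts with 200 of 26881 genes changed 4-fold, edgeR recovered 100% and made 5 false calls. On 168394 simulated transcripts it recovered 99.5% and made 6. Only well-counted features were changed, in equal number up and down, and all features had the same spread. The simulation therefore cannot speak to errors from the scaling, or to data in which most features differ. Alternatives were DESeq2 1.42.0, library size, a replicate block, other count filters, other gene counts, collapsed transcripts, a fold threshold and each library left out.

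Members and gene lists were chosen with earlier results of these data known. Named were all protein-coding and lncRNA members with a symbol, fixed microRNA genes, the 3 microRNA and 3 SNORD genes with the most alignments, members without a symbol among the 5 largest, and the lists of regulators, partners, microRNA processing, flanks and markers. SNORD112, SNORD113-4, SNORD114-3, SNORD114-12, SNORD114-26, SNORD114-27, MIR300, MIR1185-1, MIR1185-2, MIR487A, ENSG00000274884, ENSG00000275134, ENSG00000258497, ENSG00000288302 and the flank genes named were chosen after their values were seen. Promoter and microRNA sequences are from RefSeq (GRCh38.p14). A gene of the partner list is not reported here.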

Additional observations from a re-analysis of the deposited data

How the results depend on the processing

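The 21 genes lower and 1 gene higher in primed cells were also the counts with DESeq2, with library size, with the longest span as gene count and with a log2 threshold of 1, and the sum over isoforms gave 23 and 1. Without a count filter 48 genes of 70 were lower, and with at least 50 counts 11 of 11 genes were lower and 0 higher, by construction since fewer genes were tested and DIO3 was among those removed. At the transcript level the filter of 50 counts left 110 lower and 0 higher for the same reason. With more than 10 counts in place of more than 3, 47.1% of members passed in naïve rep2. The log2 fold change of DLK1 was 0.0129 with library size (adjusted p = 0.978). Leaving out each library in turn gave 21 to 21 genes lower and 1 to 1 higher, and 120 to 120 transcripts lower and 1 to 1 higher, with the lone library of a state assumed to vary like the others. Over these fits the log2 fold change ran from 1.92 to 2.71 for DIO3, from −13.96 to −9.14 for MEG8, from −11.53 to −8.49 for RTL1 and from −7.53 to −4.57 for SNORD114-3; for the last 3 the extremes came from leaving out a primed library, of which 1 holds all of the primed alignments.

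No pairing of samples by replicate number was seen: the correlation of same-numbered deviations was 0.03 across 27633 genes. With a single difference between replicates per state, this value cannot exclude pairing. With the replicate block, 21 genes were lower and 1 higher, and 120 transcripts were lower and 1 higher.

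Low counts limit what can be said of MEG9, DIO3OS and the microRNA genes, and counts over shared spans limit RTL1 and MIR493HG.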
